A study of Homo sapiens with 24 samples.

Results

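The genes described here are 39 genes of mitosis, the stage at which a cell divides its copied chromosomes between daughter cells. They were read from microarrays as the probe sets that the platform annotation assigns to a single one of these symbols, which gave 75 of the 54675 probe sets (groups of short probes that read 1 transcript). Each gene was represented by its brightest probe set over all 24 arrays, so that 39 of 19775 genes with a probe set of their own were followed. All 39 passed the filter on low signal in both cell lines, by the same probe set.

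Entry into mitosis is driven by the kinase CDK1 bound to cyclin B, and the Aurora and Polo kinases then build the spindle and condense the chromosomes. The checkpoint kinases BUB1, BUB1B and TTK hold the cell until each kinetochore is attached, after which CDC20 activates the anaphase-promoting complex (APC/C), a ubiquitin ligase that destroys securin and cyclin B. Transcripts of these genes accumulate in G2 and mitosis, so their level in a bulk culture follows how many cells are dividing. Fewer cells in mitosis and less RNA per mitotic cell cannot be told apart in these samples.

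The samples fall into 8 groups of 3 arrays each. HEK293 cells, a human embryonic kidney line, carried a doxycycline-inducible dominant-negative mitochondrial DNA polymerase gamma (DN-POLG) and were collected before induction (day 0) and after 3, 6 and 9 days on doxycycline. A derivative of the same inducible cells that also expressed the alternative oxidase AOX and the yeast NADH dehydrogenase NDI1 (AOX/NDI1) was collected at days 0 and 9. Both transgenic enzymes bypass parts of the respiratory chain, and day 0 cells of each model are its own uninduced control. The 143B osteosarcoma line was compared as 143B rho+, which holds mitochondrial DNA, and 143B rho0, a derivative that lacks it. All cultures received high glucose with uridine and pyruvate, and the 143B comparison rests on a single line of each kind. The study describes a replicate of the HEK293 models as 1 round of culture split from a single starter, with flasks pooled at days 6 and 9. Its methods describe the array experiments, like all others but ChIP-seq, as independent biological replicates, with no further detail for the 143B cultures.

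The labels were checked against the data first. Of the POLG probe sets, one read 280 to 421 signal units in DN-POLG cells before induction and 2834 to 4739 over the induced arrays. In AOX/NDI1 cells it read 197 to 274 at day 0 and 447 to 4035 at day 9. Replicate 3 of AOX/NDI1 day 9 had the value of 447, above its controls but far below every other induced array, so the called genes of these cells and a few others are also given without it. A brighter POLG probe set overlapped between days 0 and 9 of DN-POLG cells (643 to 1295 and 1019 to 1298) and a dim one read 3.34 to 78.6 over all 24 arrays. Of 10 osteosarcoma and mesenchymal markers, SPARC read 5679 to 12618 in 143B and 4 to 79 in HEK293, and CD44, TGFBI and FN1 separated the lines in the same direction, whereas THY1 and COL1A2 were low in both. VIM ran the other way without overlap, at 19106 to 41138 in HEK293 and 12993 to 16615 in 143B, and S100A4, LOX and COL1A1 overlapped between the lines. Of 7 kidney-lineage markers of HEK293, 6 had a probe set of their own, and WT1, SALL1 and LHX1 reached higher signal in 143B than in HEK293. RNA quality was read from the 3′ to 5′ ratio of ACTB, which was 8.92 for replicate 1 of DN-POLG day 6 and 1.05 to 1.81 on the other HEK293 arrays. The ratio was 10.4 to 17.1 in 143B rho+ and 5.53 to 8.12 in 143B rho0, without overlap. Its part in any result was not tested.

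Promoters of the members were inspected because mitotic genes are known for a shared pair of elements, the cell cycle genes homology region (CHR) and upstream CCAAT boxes bound by NF-Y. RefSeq promoter windows of GRCh38.p14, 250 bases before to 50 after each start, were found for 33 of the 39 genes in 37 windows. AURKA, BIRC5, RACGAP1, TPX2, TTK and UBE2C had no entry. The CHR letters, TTTGAA or TTTAAA on either strand, occurred in 33 of the 37 windows (89.2%), against 20.2% of the 22198 windows of protein-coding genes. CCAAT, on either strand, occurred in 30 (81.1%), against 34.7%. From 50 bases before the start to 50 after it, the CHR letters were in 70.3% of the members' windows and in 5.89% of those of protein-coding genes. A match of these letters is a description and not a measured binding site.

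The sequences below are those of the members whose signal passed the test in at least 1 comparison and that had a window, written 5′ to 3′ along the gene from 120 bases before the start to 30 after it. Capitals mark the CHR and CCAAT letters, also as TTCAAA or ATTGG where the match lies on the other strand. They are KIF11 (chr10:92593010-92593159, plus strand), ASPM (chr1:197146640-197146789, minus strand), CDC20 (chr1:43358861-43359010, plus strand), MKI67 (chr10:128126394-128126543, minus strand), KIF20A (chr5:138178992-138179141, plus strand) and CDCA3 (chr12:6851257-6851406, minus strand).
KIF11: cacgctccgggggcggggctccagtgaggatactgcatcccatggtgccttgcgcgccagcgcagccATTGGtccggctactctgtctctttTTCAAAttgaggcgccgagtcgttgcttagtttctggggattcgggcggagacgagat
ASPM: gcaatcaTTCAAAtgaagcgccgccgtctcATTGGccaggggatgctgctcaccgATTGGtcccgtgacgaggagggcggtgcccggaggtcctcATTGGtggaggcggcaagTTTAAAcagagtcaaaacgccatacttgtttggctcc
CDC20: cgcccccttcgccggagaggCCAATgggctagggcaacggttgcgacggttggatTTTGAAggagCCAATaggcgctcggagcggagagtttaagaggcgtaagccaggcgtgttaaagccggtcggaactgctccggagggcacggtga
MKI67: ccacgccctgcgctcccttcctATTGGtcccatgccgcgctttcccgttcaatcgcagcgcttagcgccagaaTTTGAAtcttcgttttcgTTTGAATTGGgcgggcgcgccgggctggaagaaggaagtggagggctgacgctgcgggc
KIF20A: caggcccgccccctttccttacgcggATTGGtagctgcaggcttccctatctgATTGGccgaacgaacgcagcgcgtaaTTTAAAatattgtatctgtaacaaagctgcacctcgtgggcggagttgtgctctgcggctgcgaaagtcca
CDCA3: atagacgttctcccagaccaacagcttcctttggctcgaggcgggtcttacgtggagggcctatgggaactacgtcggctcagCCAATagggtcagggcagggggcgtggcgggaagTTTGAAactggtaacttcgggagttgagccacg
In each of these 6 stretches at least 1 CHR and 1 CCAAT match began upstream of the start, and in CDCA3 the CHR match ran across it. The CHR nearest the start began 28 bases before it in KIF11, 7 in ASPM, 65 in CDC20, 29 in MKI67, 41 in KIF20A and 3 in CDCA3. In MKI67 the CHR nearest the start overlapped a CCAAT box. The 2 members shown that fell at day 9 and the 4 that rose in 143B rho0 cells thus carried the same letters, as did most members that passed no test.

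Levels are given as MAS5 signal, a brightness per probe set scaled to a common array mean, and changes as differences of mean log2 signal. A gene was said to rise or fall where limma's p, adjusted by Benjamini-Hochberg over all probe sets tested, was under 0.05, and groups were said not to overlap where all 3 arrays of one lay beyond all 3 of the other.

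Across the 8 comparisons, the mitotic genes changed little in the HEK293 models and were shifted upwards in 143B rho0 cells. With limma, 0 of 39 passed at day 3 of DN-POLG, 0 at day 6, 3 at day 9 and 0 between days 6 and 9. In AOX/NDI1 cells 2 passed at day 9, and 0 passed for AOX/NDI1 against DN-POLG at day 0 or for the difference between the day 9 responses. In 143B cells 4 passed. In DN-POLG cells the members' median log2 fold change was 0.05 at day 3, 0.00 at day 6 and -0.20 at day 9, where the medians over all genes tested were 0.06, -0.01 and 0.01. These small medians leaned on the controls: without day 0 replicate 3 they were -0.11, -0.11 and -0.30, and without day 0 replicate 2 the day 9 median was -0.09. At day 9 of AOX/NDI1 cells it was 0.10 against -0.04, and in 143B rho0 cells 0.65 against -0.02.

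**Figure D1:**
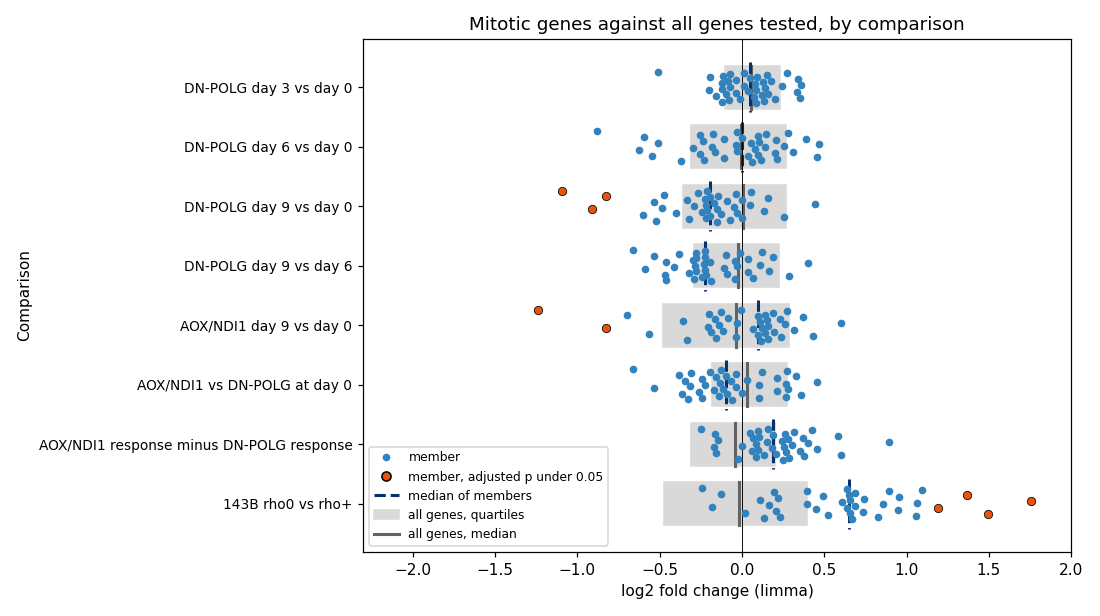
The log2 fold change of each of the 39 mitotic genes (points) in the 8 comparisons, with the median of the members (dashed line) and the median and quartiles of all genes tested (grey). Members with an adjusted p under 0.05 (orange) lie below 0 at day 9 of both HEK293 models and above 0 in 143B rho0 cells, where 36 of 39 members lie above 0.

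**Figure D2:**
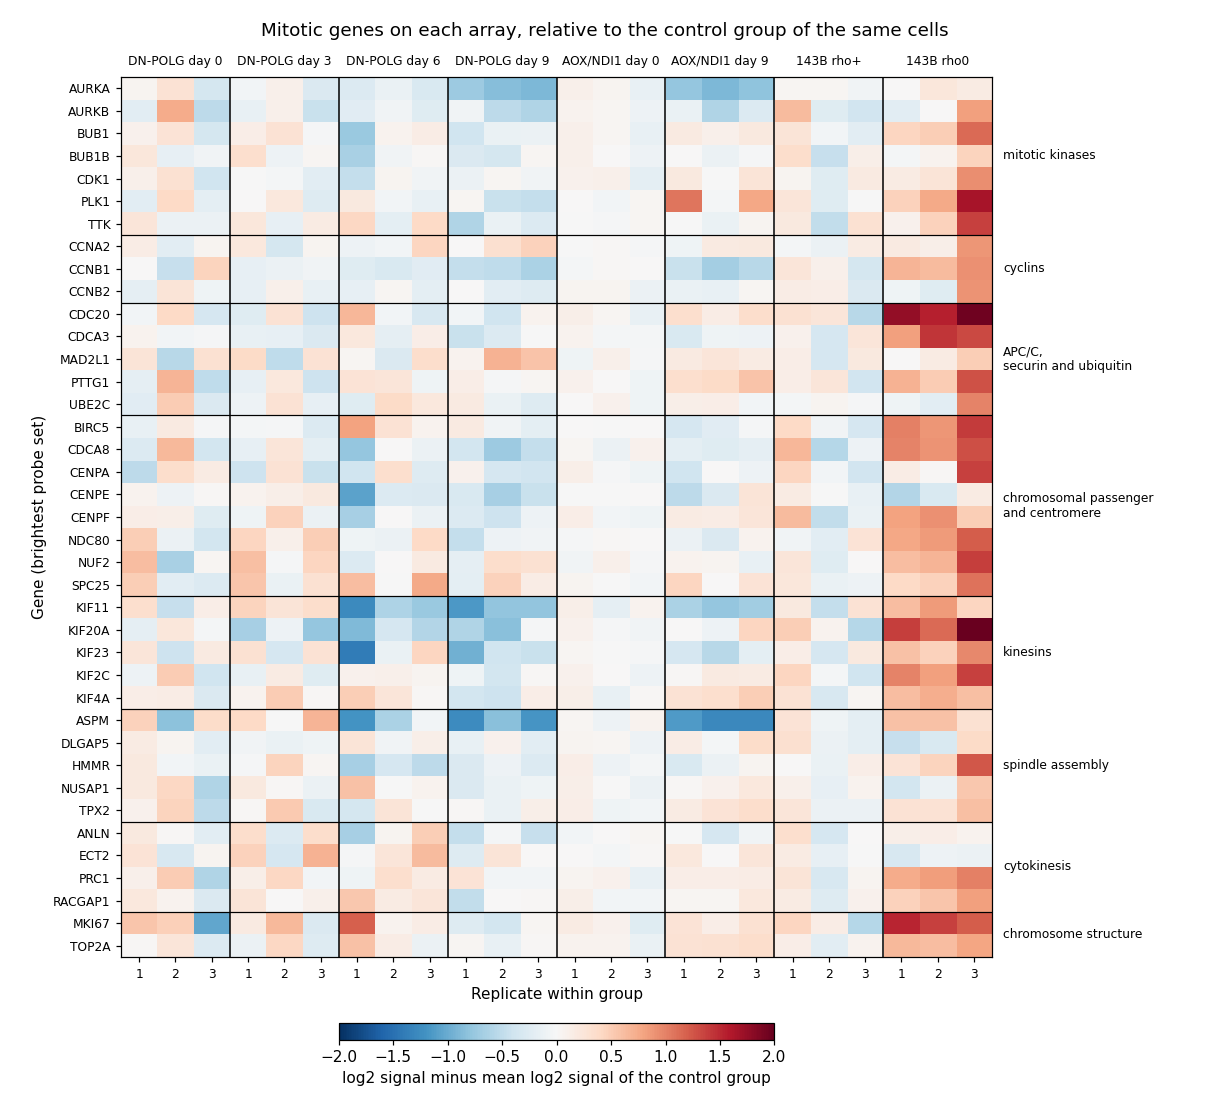
Signal of each member on each of the 24 arrays, as log2 signal minus the mean log2 signal of the control group of the same cells (DN-POLG day 0, AOX/NDI1 day 0 or 143B rho+), with genes grouped by role. AURKA, KIF11 and ASPM are low on all 6 day 9 arrays, and most genes are high in 143B rho0, most of all on replicate 3.

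At day 3 of doxycycline no member passed the test against day 0 in DN-POLG cells. The log2 fold changes ran from -0.51 for KIF20A, a kinesin of cytokinesis, to 0.36 for ASPM, a spindle pole protein, and 38 of 39 lay within 0.5 of 0. No gene among all 12104 tested passed the limma threshold (0.0%), and no member reached an unadjusted p under 0.05, against 1.85% of all genes higher and 0.529% lower. The members had a median standard error of 0.23 on the log2 scale.

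At day 6 the members again passed no test with limma, while 1.00% of all genes were lower and 0.207% higher. Of the 39 members, 4 had an unadjusted p under 0.05, all lower, close to the 9.78% of all genes with a lower value at that p. They were KIF11, the kinesin that pushes spindle poles apart, HMMR, a spindle assembly protein, KIF20A and CENPE, a kinetochore kinesin. The same 4 were the members whose day 6 values all lay below all day 0 values, against 7.94% of all genes. KIF11 read 3571, 2067 and 3105 at day 0, 3861, 3394 and 3637 at day 3 and 1174, 1847 and 1692 at day 6. The fold change from day 0 to day 6 was -0.88 ± 0.22 (SE, n = 3 per group, limma adjusted p = 0.0668). Without replicate 2 of day 0, which reads lowest for KIF11, the adjusted p was 0.0170, and it was 0.0114 with array weights. Replicate 1 of day 6, whose ACTB ratio was high, had the lowest KIF11 value of its group.

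At day 9 of DN-POLG cells 3 of the 39 members fell, namely AURKA, KIF11 and ASPM (7.69%), which is close to the 6.39% of all genes that were lower. No member rose, against 1.30% of all genes. AURKA, the Aurora kinase of centrosome maturation and spindle poles, read 7618, 8977 and 5706 at day 0, 7053, 7848 and 6005 at day 3, 6053, 6631 and 5911 at day 6 and 4435, 4028 and 3921 at day 9. The day 9 values all lay below those of every other day. The mean signal was 7434 ± 1643 (SD, n = 3) at day 0 and 4128 ± 271 at day 9, a log2 change of -0.83 ± 0.19 (SE) or 1.77-fold lower (limma adjusted p = 0.0118). Of the dimmer AURKA probe sets, one gave -0.83 (adjusted p = 0.0115) and the other -0.39 (adjusted p = 0.583).

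KIF11 read 1282, 1638 and 1647 at day 9, all below the 2067 to 3571 of day 0 and beside the 1174 to 1847 of day 6. Its log2 change from day 0 was -0.91 ± 0.22 or 1.88-fold lower (limma adjusted p = 0.0190), and from day 6 to day 9 it was -0.03. ASPM, which holds microtubule minus ends at the spindle pole, read 4949, 2040 and 4652 at day 0, 4771, 3584 and 5786 at day 3, 1578, 2330 and 3472 at day 6 and 1504, 2023 and 1601 at day 9. Replicate 2 of day 0 lay just above the highest day 9 value. The change was -1.09 ± 0.32 or 2.13-fold lower (limma adjusted p = 0.0489). The other ASPM probe sets gave -0.60 (adjusted p = 0.264) and 0.26 (adjusted p = 0.762).

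**Figure D3:**
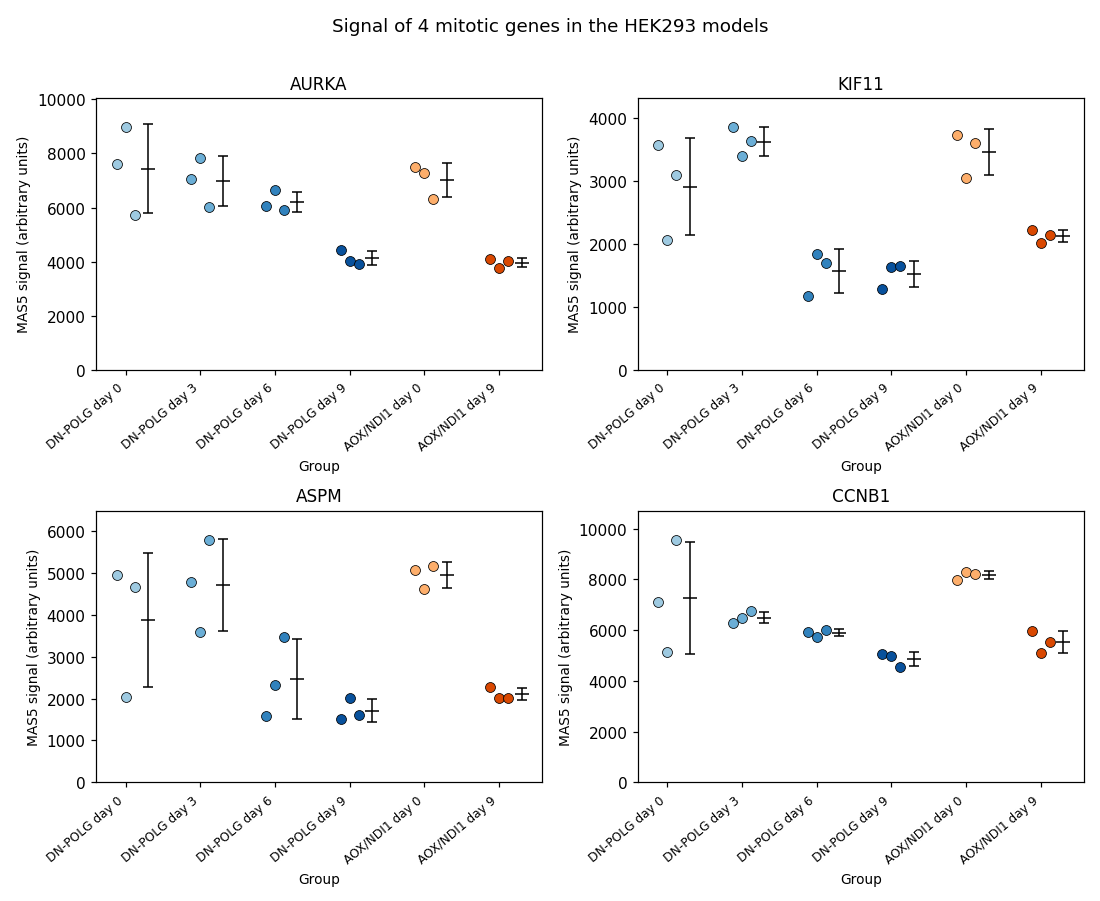
MAS5 signal of AURKA, KIF11, ASPM and CCNB1 in the 6 HEK293 groups, with points for the 3 arrays of a group and bars for the mean and SD. Day 9 arrays of both models lie below their own day 0 arrays for each of the 4 genes. KIF11 is already low at day 6.

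Other members gave no passing change at day 9 but did not scatter evenly around 0, with 31 of 39 below it and 50.6% of all genes above it. Among the 7 kinases each value was below 0, from -0.05 for CDK1 to -0.83 for AURKA. CDK1, which starts mitosis, read 23098, 26671 and 16438 at day 0 and 20044, 22292 and 20617 at day 9, and the groups overlapped. The 5 kinesins also lay below 0, from -0.14 for KIF2C, which depolymerizes microtubules, to -0.91 for KIF11.

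Of the cyclins, CCNB1, the partner of CDK1, was nearest to a call. It read 7121, 5144 and 9557 at day 0 and 5066, 4971 and 4554 at day 9, without overlap. Its log2 difference was -0.54 ± 0.20 (limma adjusted p = 0.112), and without replicate 2 of day 0 it was -0.76 (adjusted p = 0.0139). CCNB2 was at -0.15 and CCNA2, the cyclin of S phase and G2, at 0.26.

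In the centromere and chromosomal passenger group 6 of 8 genes lay below 0, from CDCA8 at -0.52 to NUF2 at 0.16. In the APC/C, securin and ubiquitin group the values ran from -0.24 for CDCA3, a trigger of mitotic entry, to 0.44 for MAD2L1, the checkpoint protein that blocks CDC20. The cytokinesis genes lay between -0.32 for ANLN, the anillin scaffold of the contractile ring, and 0.05 for PRC1, which bundles the central spindle. MKI67, the Ki-67 proliferation marker, was at -0.19 and TOP2A, the topoisomerase that untangles chromosomes, at -0.03. In all, 6 members did not overlap between the groups at day 9, each lower, against 14.3% of all genes lower and 9.15% higher: AURKA, CCNB1, ASPM, TTK, KIF11 and CENPE.

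The calls at day 9 depended on the settings of the fit and on single arrays. With the replicate number as a block 1 of the 3 calls was left, AURKA, with KIF11 at an adjusted p of 0.0528 and ASPM at 0.0721. AURKA was the 1 call left when day 0 replicate 1, day 0 replicate 3 or day 9 replicate 1 was removed, and KIF11 when day 9 replicate 3 was. Over the 18 fits that left out 1 array, AURKA kept its call in 17, KIF11 in 15 and ASPM in only 4. Over the 11 other settings AURKA kept it in 8, KIF11 in 7 and ASPM in 3.

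Between days 6 and 9 of DN-POLG cells no member passed with limma, and 0.215% of all genes were lower and 0.0496% higher. Their median was -0.22 against -0.02 over all genes, and 9 of 39 lay above 0, as did 47.7% of all genes. Unadjusted p-values under 0.05 were found for 4 members, all lower at day 9, against 7.02% of all genes: AURKA (-0.59), TTK (-0.54), KIF4A (-0.47) and RACGAP1 (-0.46). The lowest adjusted p was 0.200, for AURKA.

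In AOX/NDI1 cells at day 9 the same kinase and the same spindle pole gene fell, AURKA and ASPM. These are 2 of 39 members (5.13%), below the 10.1% of all genes that were lower in this comparison, and no member rose (1.55% of all genes did). AURKA read 7505, 7262 and 6318 at day 0 and 4084, 3766 and 4034 at day 9. No day 9 value came near the day 0 range, and the change was -0.82 ± 0.19 (SE, n = 3 per group, limma adjusted p = 0.00921). Its dimmer probe sets fell by 0.86 (adjusted p = 0.00698) and by 1.42 (adjusted p = 0.0138). ASPM read 5072, 4600 and 5169 at day 0 and 2265, 2013 and 2020 at day 9, again without overlap. It fell by 1.24 ± 0.32 or 2.36-fold (limma adjusted p = 0.0204), and 1 of its dimmer probe sets by 0.96 (adjusted p = 0.0480). Without replicate 3 of day 9, the array with low POLG signal, AURKA was at -0.84 (adjusted p = 0.0310) and ASPM at -1.21 (adjusted p = 0.0684). Over all genes 75 were then higher and 769 lower, against 188 and 1223 with it.

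KIF11 missed the threshold in these cells. It read 3735, 3052 and 3611 at day 0 and 2218, 2020 and 2141 at day 9, a difference of -0.70 ± 0.22 (limma adjusted p = 0.0543), without overlap. CCNB1 read 7984, 8279 and 8220 at day 0 and 5965, 5113 and 5539 at day 9, a difference of -0.56 ± 0.20 (limma adjusted p = 0.0754), also without overlap. Without replicate 3 of day 9 KIF11 was at -0.71 (adjusted p = 0.130) and CCNB1 at -0.56 (adjusted p = 0.170). Among other settings, both passed with quantile normalization, with array weights, with the compared groups alone and without replicate 2 of DN-POLG day 0. With the compared groups alone the limma adjusted p was 0.00854 for KIF11 and 0.0117 for CCNB1, where 1503 of all genes were higher and 2528 lower. AURKA was the 1 member called without any single replicate of AOX/NDI1 day 0 or without replicate 3 of day 9.

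Beyond these genes the members lay on either side of 0 in AOX/NDI1 cells, with 21 of 39 above it and 47.2% of all genes. The sign of their median turned with the scaling: it was 0.10 as deposited, 0.24 with arrays centred on their medians and -0.09 with quantile normalization. As deposited it was 0.05 without day 0 replicate 3 and also without day 9 replicate 3, the array with low POLG signal. The groups did not overlap for 8 members that were higher, against 24.6% of all genes, and for 9 that were lower, against 29.6%. PTTG1, the securin that guards sister chromatids, read 12279, 11699 and 10898 at day 0 and 14696, 15059 and 17315 at day 9 (0.43, limma adjusted p = 0.311). TOP2A read 11754, 11824 and 10244 at day 0 and 13782, 13936 and 14296 at day 9 (0.32, limma adjusted p = 0.396). Both sets of arrays were narrow in these cells, where the median SD of a member was 0.10 at day 0 and 0.11 at day 9 on the log2 scale, against 0.36 at day 0 of DN-POLG cells.

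PLK1, the Polo kinase of spindle and centrosome, was the most variable member at day 9 of AOX/NDI1 cells. It read 461, 438 and 471 at day 0 and 958, 444 and 778 at day 9, so that replicate 2 stayed at the day 0 level. The difference was 0.60 ± 0.27 (limma adjusted p = 0.165). Without replicate 2 of day 9 it was 0.92 (adjusted p = 0.0324), and without replicate 3 it was 0.51 (adjusted p = 0.378).

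**Figure D4:**
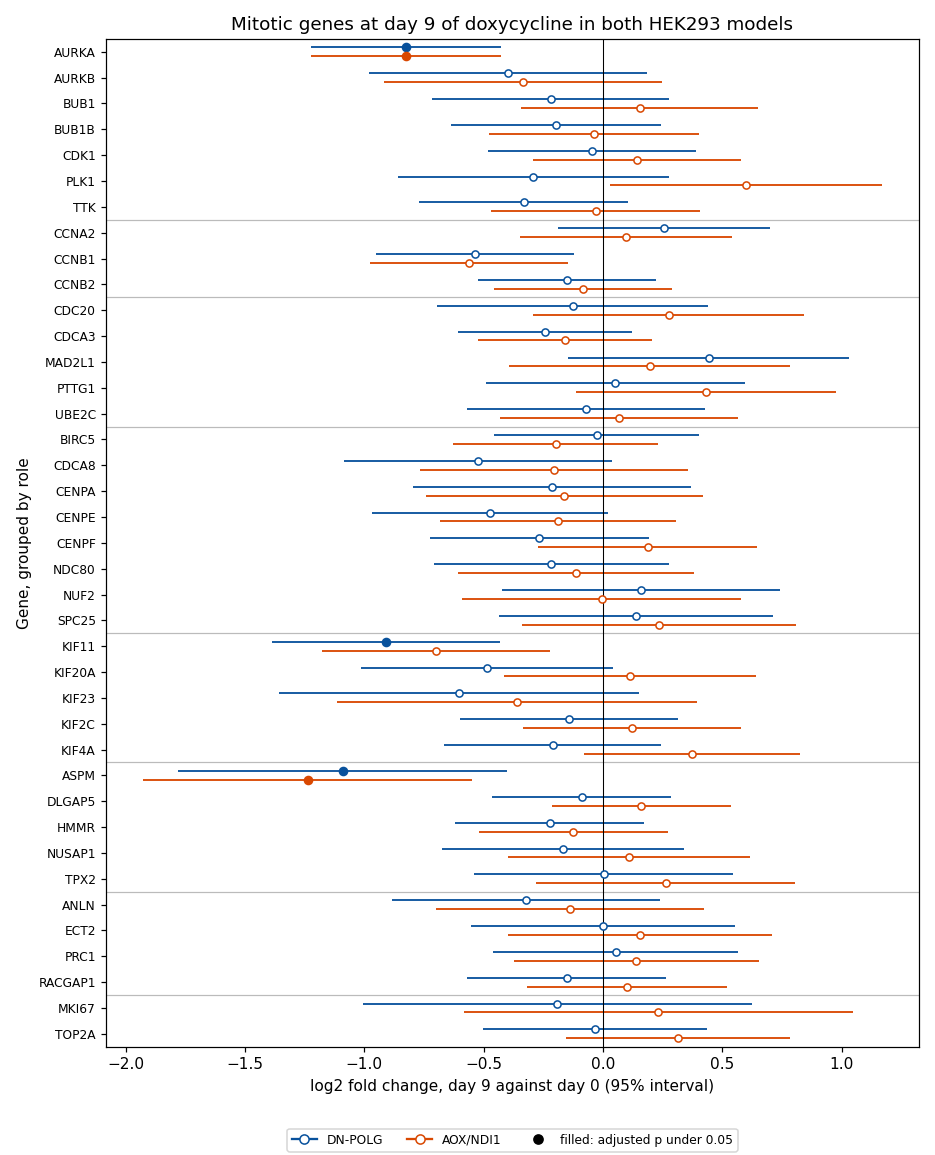
Log2 fold change from day 0 to day 9 with its 95% interval for the 39 members in DN-POLG cells (blue) and AOX/NDI1 cells (orange), grouped by role. The intervals of AURKA, KIF11, ASPM and CCNB1 lie below 0 in both models, and filled points mark an adjusted p under 0.05.

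The HEK293 models were compared with each other at day 0 and in their response. At day 0 no member passed with limma between AOX/NDI1 and DN-POLG cells, and 1 gene of all tested did (0.00826% of genes, higher). Unadjusted p-values under 0.05 were found for CENPE (-0.66) and KIF20A (-0.53), both lower in AOX/NDI1 cells, against 1.8% of all genes lower at that p. CENPE read 1783, 1593 and 1732 in DN-POLG cells and 1070, 1068 and 1083 in AOX/NDI1 cells, without overlap.

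For the response from day 0 to day 9, AOX/NDI1 minus DN-POLG, no member and no gene of all tested passed with limma (0.0% of genes in either direction). For AURKA the difference between the responses was 0.00, with a 95% interval from -0.56 to 0.56. For ASPM it was -0.15 (interval from -1.12 to 0.83), for KIF11 0.21 (from -0.47 to 0.88) and for CCNB1 -0.03 (from -0.61 to 0.56). PLK1 was the 1 member with an unadjusted p under 0.05 (0.89, limma adjusted p = 0.999), against 0.95% of all genes higher at that p. The median difference over the members was 0.19 against -0.04 over all genes, with 33 of 39 and 45.3% of all genes above 0.

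In 143B cells the mitotic genes were higher in rho0 than in rho+. The log2 difference was above 0 for 36 of 39 members and for 48.8% of all genes, with a median of 0.65 against -0.02. CDC20, MKI67, KIF20A and CDCA3 rose, which is 4 of 39 members (10.3%) against 2.64% of all genes tested, and no member fell against 5.55%. The rho0 values of 23 members all lay above all rho+ values (59.0% of members, 16.6% of all genes), and no member showed the opposite order (17.7% of all genes). At an unadjusted p under 0.05, 19 members were higher (48.7%, against 12.7% of all genes).

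CDC20, the activator that turns the APC/C on at anaphase, had the largest difference of the members. It read 1508, 1447 and 830 in rho+ and 4120, 3599 and 4682 in rho0 cells. The mean signal was 1262 ± 375 (SD, n = 3) and 4134 ± 542, a log2 rise of 1.75 ± 0.30 (SE) or 3.37-fold (limma adjusted p = 0.0159). MKI67 read 1938, 1599 and 967 in rho+ and 4135, 3738 and 3323 in rho0 cells, and rose by 1.37 ± 0.31 or 2.58-fold (limma adjusted p = 0.0353). No rho0 array of either gene overlapped a rho+ array. The 3 other MKI67 probe sets gave 0.51 to 1.22 (adjusted p = 0.0635 to 0.341).

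KIF20A, the kinesin that carries passenger proteins to the midzone, read 779, 579 and 373 in rho+ and 1434, 1207 and 2172 in rho0 cells. It rose by 1.49 ± 0.35 or 2.82-fold (limma adjusted p = 0.0409). CDCA3, which takes part in the removal of the mitotic brake WEE1, read 490, 362 and 546 in rho+ and 807, 1241 and 1150 in rho0 cells. It rose by 1.19 ± 0.28 or 2.28-fold (limma adjusted p = 0.0418), and its dimmer probe set was at 0.97 (adjusted p = 0.130). The lowest rho0 array lay above the highest rho+ array for both genes.

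**Figure D5:**
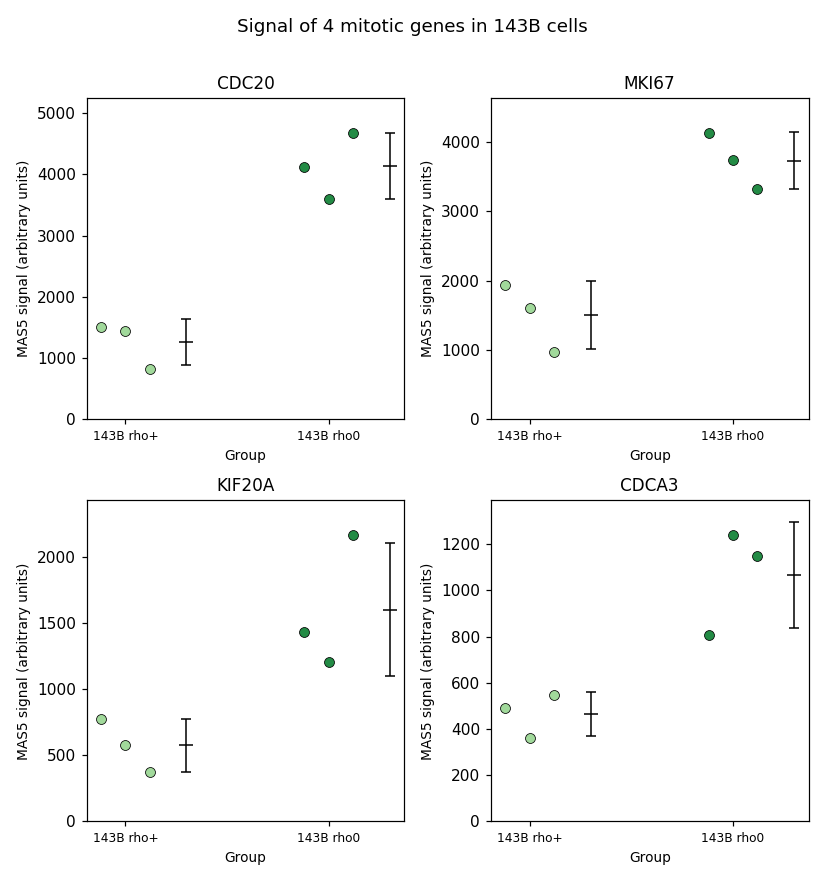
MAS5 signal of CDC20, MKI67, KIF20A and CDCA3 in 143B rho+ and 143B rho0 cells, with points for the 3 arrays of a group and bars for the mean and SD. The rho0 arrays lie above the rho+ arrays for each of the 4 genes.

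Just outside the threshold stood BIRC5, the survivin subunit of the chromosomal passenger complex. It read 1632, 1185 and 982 in rho+ and 2498, 2272 and 3260 in rho0 cells (1.10 ± 0.28, limma adjusted p = 0.0529). CDCA8, the borealin subunit of the same complex, was at 1.06 (adjusted p = 0.0926) and their kinase AURKB at 0.21 (adjusted p = 0.759). The kinetochore genes NDC80, NUF2 and SPC25, which form one complex, were at 0.94 (adjusted p = 0.0594), 0.89 (0.0970) and 0.66 (0.168), without overlap between the groups. CENPE was at -0.25 and CENPA, the centromere histone, at 0.52.

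The 5 kinesins lay between 0.63 and 1.49, and the 5 genes of the APC/C, securin and ubiquitin group between 0.22 for MAD2L1 and 1.75 for CDC20. The 7 kinases were all above 0, from AURKA at 0.13 and BUB1B at 0.16 to PLK1 at 0.95. AURKA read 12412, 12436 and 11489 in rho+ and 12179, 14117 and 13558 in rho0 cells, with overlap and a 95% interval of the log2 difference from -0.37 to 0.64. The spindle assembly genes ran from DLGAP5 at -0.13 to HMMR at 0.66. The cytokinesis genes ran from ECT2 at -0.18 to PRC1 at 0.86, and of the cyclins CCNB1 was highest at 0.74, with 4600, 4146 and 3049 in rho+ and 6182, 6006 and 7282 in rho0 cells.

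The 4 calls rest on few arrays, and the ACTB ratio that marks RNA quality differed between the same groups (10.4 to 17.1 in rho+, 5.53 to 8.12 in rho0), whose part was not tested. Leaving out rho0 replicate 1, or rho+ replicate 2, left no call (CDC20 then had adjusted p-values of 0.0552 and 0.0630). Over all genes 49 were higher and 198 lower without rho0 replicate 1, and 28 and 108 without rho+ replicate 2. Leaving out rho0 replicate 2, rho+ replicate 1 or rho+ replicate 3 left CDC20 as the 1 call. There were 6 calls without rho0 replicate 3, the array with the highest mitotic signal (farthest from its group mean for 33 of 39 members). Calls over all genes then also grew, to 1203 higher and 1830 lower, against 302 and 634 with it. A replicate block called 1 (CDC20), where 90 of all genes were higher and 285 lower. Array weights called 18, where 1876 of all genes were higher and 2415 lower. Centring the arrays on their medians moved the median of all genes from -0.02 to 0.29 and called 16 members. It also turned the split of all genes from 302 higher and 634 lower to 985 higher and 398 lower, and quantile normalization gave 408 higher and 539 lower. The median of the members relative to that of all genes stayed above 0 under each scaling, at 0.96 against 0.29 when centred and 0.63 against 0.05 with quantile normalization.

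The level of these genes differed between the cell lines before any loss of mitochondrial DNA, which is given as a description. Relative to DN-POLG cells at day 0, the log2 signal in 143B rho+ cells was lower for 34 of 39 members, with a median of -1.22 against -0.26 over 10258 genes, of which 56.4% were below 0. All 3 arrays of 143B rho+ lay below all 3 of DN-POLG day 0 for 31 members. AURKB, the kinase of the passenger complex, was lowest at -3.53, with 697, 378 and 345 in 143B rho+ and 4478, 8626 and 3608 in DN-POLG day 0. ANLN and AURKA were higher in 143B rho+ on all arrays, by 1.16 and 0.73. The ACTB ratio differed between the lines as given above, and line and RNA quality cannot be told apart here.

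Related cell cycle genes were read from lists outside the members. In DN-POLG cells at day 9, 3 of 20 cell cycle transcription factors fell and 0 rose, namely E2F3, E2F8 and RBL1, where 6.39% of all genes fell and 1.30% rose. E2F3, an E2F of S-phase entry, had a mean of 2678 ± 345 (SD, n = 3) at day 0 and 1061 ± 285 at day 9 (-1.36, limma adjusted p = 0.00177). E2F8, a repressor E2F, was at -1.51 (adjusted p = 0.0210) and RBL1, the p107 pocket protein, at -1.22 (adjusted p = 0.0401). The same 3 of 20 fell in AOX/NDI1 cells, where 10.1% of all genes fell and 1.55% rose, by 1.60, 1.83 and 1.28 (adjusted p = 0.000435, 0.00498 and 0.0244).

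Of 40 other kinetochore and spindle genes, 7 fell and 0 rose in DN-POLG cells at day 9 (6.39% and 1.30% of all genes), with a median of -0.28. DSN1, MIS12 and KIF14 were those of smallest adjusted p, at -0.84, -1.36 and -1.01 (adjusted p = 0.00904, 0.00997 and 0.0153). MIS12 and DSN1 encode subunits of one kinetochore complex and KIF14 a kinesin of cytokinesis. In AOX/NDI1 cells 7 of the 40 fell as well (10.1% of all genes), with MIS12 at -1.78, KIF14 at -1.02 and DEPDC1 at -0.71 (adjusted p = 0.00132, 0.0113 and 0.0144). WAPL, which releases cohesin from chromosomes, was the 1 of 22 cohesin and condensin genes that fell in each model. It fell by 1.63 and 1.75 (adjusted p = 0.00311 and 0.00144). This count is to be read against the 6.39% and 10.1% of all genes that fell.

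CDK inhibitors and p53 targets did not move together in the HEK293 models. Of 17 measured genes of this list, 1 rose and 1 fell in DN-POLG cells at day 9, and 1 rose and 3 fell in AOX/NDI1 cells, to be read against the same shares of all genes. GADD45B, a stress-induced growth arrest gene, rose by 1.72 (adjusted p = 0.0316) and 1.79 (adjusted p = 0.0194), and the CDK4 and CDK6 inhibitor CDKN2B fell by 0.96 (adjusted p = 0.0214) and 0.85 (adjusted p = 0.0318). CDKN1B, the p27 inhibitor, fell by 0.93 in AOX/NDI1 cells (adjusted p = 0.0270). Among 17 genes of G2/M entry control, ARPP19, which restrains the phosphatase PP2A in mitosis, rose by 1.02 in DN-POLG cells and 0.94 in AOX/NDI1 cells (adjusted p = 0.0301 and 0.0352). CCNF, cyclin F, fell by 1.47 in DN-POLG cells (adjusted p = 0.0153). These single calls of the G2/M list are to be read against the same shares of all genes.

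Of 13 G1 cyclins and CDKs, CCNE2 fell by 0.82 in DN-POLG cells at day 9 (adjusted p = 0.0371) and none passed in AOX/NDI1 cells, and of 13 measured APC/C genes none passed in either model. In the DNA replication list of 40 genes, 0 passed in DN-POLG cells at day 9 and 1 rose and 1 fell in AOX/NDI1 cells, the helicase subunit MCM5 (1.25, adjusted p = 0.0190) and the polymerase subunit POLE2 (-0.82, adjusted p = 0.0284). All genes give the scale for these counts: 6.39% fell and 1.30% rose in DN-POLG cells at day 9. In AOX/NDI1 cells 10.1% fell and 1.55% rose. The HEK293 line markers moved as well: EYA1 fell by 1.73 in DN-POLG cells at day 9. In AOX/NDI1 cells 3 of 5 measured markers fell, where 10.1% of all genes were lower. SIM1 was at -5.12 ± 0.83 (SE) there, with signals of 595 to 662 at day 0 and 3.79 to 78.7 at day 9. Its mean of 34.4 at day 9 lay below the HEK293 signal filter, so the size of this change is uncertain. The part of these markers in the mitotic result was not tested.

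In 143B cells 5 of 40 other kinetochore and spindle genes rose and 0 fell, where 2.64% of all genes rose and 5.55% fell, with a median of 0.57 and 35 above 0. PBK, a mitotic kinase, rose by 1.60, SKA3, a kinetochore subunit, by 1.58 and CENPM, a centromere protein, by 1.61 (adjusted p = 0.0208, 0.0237 and 0.0378). Of 40 DNA replication genes 2 rose, a share near that of all genes (2.64%), and 0 fell, with a median of 0.52, namely GINS4 by 2.15 (adjusted p = 0.0351) and MCM10 by 1.48 (adjusted p = 0.0435), both of the replication fork. None of 22 cohesin and condensin genes passed, with a median of 0.40.

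Among the regulators in 143B cells, LIN9, a subunit of the DREAM and MuvB complexes that bind CHR elements, rose by 1.13 (adjusted p = 0.0342), the only 1 of 19 measured transcription factors that passed. GMNN, the replication licensing inhibitor geminin, was the 1 of 17 G2/M entry genes that passed, and rose by 1.54 (adjusted p = 0.0209). CKS1B, a cofactor of CDKs, was the 1 of 13 G1 cyclins and CDKs that passed, and rose by 1.60 (adjusted p = 0.0189). These single calls are to be read against the 2.64% of all genes that rose, and no result about the lists is drawn from them. CDKN1A, the p21 inhibitor and a p53 target, read 4418 to 5810 in rho+ and 916 to 2961 in rho0 cells, without overlap, and fell by 1.74 (adjusted p = 0.0471). SESN2, another p53 target, fell by 1.46 (adjusted p = 0.0409). Its mean of 68.0 in rho0 cells lay below the 143B signal filter of 83.3, so the size of this change is uncertain. In this list 2 of 14 measured genes fell and 0 rose, where 5.55% of all genes fell. The list did not move together, with 7 of 14 above 0 and values from -3.15 to 1.05.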

How the data were processed

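Affymetrix HG-U133 Plus 2.0 arrays of 24 samples were analysed as the deposited table of signal intensity, 1 value per probe set and array. Per the labels and the study's methods, the authors generated the signals with the MAS5 algorithm in Affymetrix Expression Console. Arrays carry a common scale: the mean signal after trimming 2% of probe sets at each end was 500.1 on every array. The scaling target is not given in the sources used here. The deposited signal intensities were converted to log2 without an offset.

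Probe sets were named from the platform annotation: 41091 had 1 gene symbol, 1801 several and 11777 none. Of the first, 41043 were matched to RefSeq by Entrez ID and 0 symbols changed. Probe sets whose mean log2 signal over the arrays of a cell line lay under the median of all probe sets (5.84 in HEK293, 6.38 in 143B, signals of 57.2 and 83.3) were left out, and the brightest of each gene was reported, which left 12104 genes in HEK293 and 11433 in 143B. The fit and the Benjamini-Hochberg adjustment ran over all 23132 and 22786 probe sets that passed.

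Groups were compared with limma 3.58.1 in R 4.3.3 (lmFit, contrasts.fit, eBayes; threshold of 0.05 on adjusted p), in 1 model of the 18 HEK293 arrays with 6 group means and 1 of the 6 arrays of 143B cells. The fit was tested on simulated data. The members, lists and tests were chosen with earlier results of these data known. All 39 members are described, and of each other list up to 3 called genes of smallest adjusted p. Comparisons of days 3, 6 and 9 share the day 0 arrays. The number of arrays limits the precision. The study describes HEK293 replicates as rounds of culture, but the sources used here do not state that the numbers in the labels are those rounds. Residuals of same-numbered DN-POLG arrays correlated by 0.32 to 0.51 between days 0 and 3 and by 0.17 to 0.21 between days 0 and 6, but by -0.32 to 0.04 between days 0 and 9, by -0.16 to -0.02 between days 6 and 9 and by -0.04 to 0.07 in AOX/NDI1 cells. Normalization, filter, offset, probe set choice, samples in the fit, array weights, a replicate block, the methods' ANOVA and leaving out each array were tried as alternatives.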

Additional observations from a re-analysis of the deposited data

Results flagged for a closer look

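For several members the day 9 arrays of a HEK293 model all lay below their day 0 arrays while the rho0 arrays all lay above the rho+ arrays. This order was seen for 3 of 39 members with DN-POLG (7.69%, against 1.94% of 10258 genes measured by the same probe set in both lines) and for 7 with AOX/NDI1 (17.9%, against 3.94%). These shares restate the 143B shift given above, where 59.0% of members and 16.6% of all genes lay above rho+ without overlap. At day 9, 15.4% of members and 14.3% of all genes were lower without overlap in DN-POLG cells. In AOX/NDI1 cells these shares were 23.1% and 29.6%. Whether both orders met in the same member more often than these shares give was not tested. The genes below were picked by this order, so their gaps are not a separate result. The cells, the way mitochondrial DNA was lost and the time since then all differ, and the difference between the lines was not tested. For KIF11 the log2 fold change in 143B was higher by 1.54 than in DN-POLG cells and by 1.34 than in AOX/NDI1 cells. For ASPM these gaps were 1.59 and 1.73, and for CCNB1 1.28 and 1.30. In AOX/NDI1 cells the same pattern was seen for CDCA3 (1.35), BIRC5 (1.29), CDCA8 (1.27) and KIF23 (1.03). Of these, KIF11 and ASPM passed the limma test in DN-POLG cells, ASPM in AOX/NDI1 cells and CDCA3 in 143B cells, so that none passed in both lines. CCNB1, BIRC5, CDCA8 and KIF23 passed in neither line.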

How the results depend on the processing

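No called member changed sign in any alternative, and the counts of 0 at day 3, between days 6 and 9 and for the difference between responses stayed at 0 in each, the methods' ANOVA included. For DN-POLG at day 9 (3 called), 0 members passed with centred arrays or with the compared groups alone. There was 1 without the signal filter or with the replicate block, and 8 with array weights, all lower. With the compared groups alone 18 of all 12104 genes were higher and 102 lower, and with array weights 948 and 1878. For AOX/NDI1 at day 9 (2 called), 0 passed with centred arrays and 1 without the filter. With quantile normalization, without _x_at and _s_at probe sets or with the methods' ANOVA 4 passed. With the methods' ANOVA KIF11 (adjusted p = 0.0445) and CCNB1 (adjusted p = 0.0392) were among those 4. This setting was an ANOVA without limma's moderation on the log2 signals and filter used here. It called 259 of all genes higher and 1177 lower. The study itself reported no gene passing adjustment between days 0 and 9 of these cells, so this setting is not a rerun of its test. The replicate block left 2. The compared groups alone gave 5 and array weights 8, not all of them lower. PTTG1 was called higher with the compared groups alone (0.43), where 1503 of all 12104 genes were higher and 2528 lower. With array weights PTTG1, TOP2A, KIF4A and PLK1 were called higher (0.30 to 0.80), where 2078 of all genes were higher and 3087 lower. For 143B (4 called), 16 passed with centred arrays, 18 with array weights, 1 with the replicate block and 0 without the filter or with the methods' ANOVA. Over all genes array weights gave 1876 higher and 2415 lower, the replicate block 90 and 285 and the methods' ANOVA 19 and 36. When the filter was left out, 42 of 19775 genes were higher and 190 lower. Without _x_at and _s_at probe sets 2 passed, CDCA3 and KIF20A, since CDC20 and MKI67 then had no probe set left to test. KIF23, which was not called in DN-POLG cells at day 9 (-0.60), was called lower with array weights (-0.75, adjusted p = 0.0151) and higher without _x_at and _s_at probe sets, which leaves its other probe set (1.31, adjusted p = 0.0430). Array weights gave 1 call at day 6 (KIF11, lower), where 109 of all genes were higher and 352 lower. They gave 2 for AOX/NDI1 against DN-POLG at day 0 (KIF4A and CENPE, lower), where 249 of all genes were higher and 203 lower.

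Leaving out each array gave 1 to 4 calls in DN-POLG cells at day 9, 1 to 4 in AOX/NDI1 cells, 0 to 1 at day 6 and 0 to 6 in 143B cells, and 0 in the other comparisons. The highest counts came without replicate 2 of DN-POLG day 0 for HEK293 and without replicate 3 of rho0 for 143B. Without replicate 1 of DN-POLG day 6 the counts were 3 at day 9 in both models. Centring moved the median of all genes from -0.04 to 0.10 in AOX/NDI1 cells and from -0.01 to 0.10 at day 6, and split the AOX/NDI1 calls over all genes as 297 higher and 703 lower, against 188 and 1223 as deposited. Over these settings the adjusted p of AURKA ran up to 0.554 in DN-POLG cells and 0.0773 in AOX/NDI1 cells, that of ASPM up to 0.239 and 0.0774, that of KIF11 in DN-POLG cells up to 0.160 and that of CDC20 in 143B cells up to 0.0922. For MKI67, CDCA3 and KIF20A it ran up to 0.125, 0.155 and 0.150. The replicate block could not be fitted for AOX/NDI1 against DN-POLG at day 0, and fitting the compared groups alone is the main fit in 143B. The cause of these shifts was not tested. Having 3 arrays per group limits what could be detected, as do signals near the filter for some genes of the other lists. Among the members' brightest probe sets the lowest mean log2 signal was 9.05 in HEK293 (PLK1) and 7.90 in 143B (CENPA), above the filters of 5.84 and 6.38.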

Other observations

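Probe sets of the same mitotic gene did not always move together. For KIF23, a kinesin of cytokinesis, the brightest probe set was at -0.60 at day 9 of DN-POLG cells (limma adjusted p = 0.364) while the other was at 1.31 (adjusted p = 0.0515), and in AOX/NDI1 cells the values were -0.36 and 1.04. For BIRC5 in AOX/NDI1 cells 1 probe set fell by 1.24 (adjusted p = 0.0211), while the 3 others, the brightest among them, lay between -0.20 and -0.02.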
